A study of Mus musculus with 47 samples.

Results

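The genes described here are 36 markers of cortical GABAergic interneurons and precursors of cortical neuropeptides, taken by name from the 48795 genes of the deposited tables. All 36 were present, and 34 of them were among the 19174 genes with enough reads to be tested. RNA was sequenced from the cerebral cortex of 47 C57BL mice aged 6 months, in 6 genotypes. Without Q140 they were wild type (WT), Ccdc82+/- and Ccdc82-/-, and with it they were Q140, Q140 with Ccdc82+/- and Q140 with Ccdc82-/-. The Q140 allele lengthens the CAG tract of the mouse huntingtin gene, to model Huntington's disease, and the labels give every carrier as heterozygous. There were 4 females and 4 males in a group, and 3 females and 4 males where Q140 and Ccdc82-/- were combined. In all, 23 mice carried Q140 and 24 did not. The sources used here do not give how the Ccdc82 allele was made. The labels do not say in words that each library came from a separate animal, and p-values measure the spread between these libraries.

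Interneurons are the inhibitory cells of the cortex. They make the transmitter GABA with the glutamate decarboxylases Gad1 and Gad2 and load it into vesicles with the transporter Slc32a1. Those born in the medial ganglionic eminence depend on Lhx6 and Sox6 and make parvalbumin (Pvalb) or somatostatin (Sst), whereas those born in the caudal eminence often make Vip, Htr3a or calretinin (Calb2). Neuropeptides are cut from larger precursors and released from dense-core granules, and some of them, such as Cck and Adcyap1, are also made by excitatory cortical neurons.

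Peptide genes are classic targets of the cAMP response element (CRE), whose full palindrome is TGACGTCA. RefSeq promoter sequences (GRCm38.p6, from 250 bases before to 50 bases after the start) were at hand for 27 of the 36 genes, in 37 promoters, and 9 genes had no entry. The full palindrome was found in 2 of the 37 promoters, those of Cartpt and Sst, against 1.79% of all 32851 promoters of the same length and 2.82% of those of tested genes. The 30 bases around each are shown because Cartpt is the precursor gene on which the Q140 comparison turns and Sst holds the same element, with the palindrome in capitals, 5′ to 3′ on the minus strand:
Cartpt chr13:99900777-99900806: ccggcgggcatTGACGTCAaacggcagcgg
Sst chr16:23890874-23890903: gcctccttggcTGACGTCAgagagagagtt
The element began 112 bases before the RefSeq start in Cartpt and 48 bases before it in Sst. Both stretches lie in the first exon, and in the 5′ UTR, of transcripts that GENCODE M21 starts further upstream (Cartpt-202 and Sst-201). The shorter core TGACG, searched on both strands and contained in the palindrome, was present in 16 of the 37 promoters, against 20.8% of all promoters and 28.3% of those of tested genes. These matches describe the letters of the promoters only.

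Library totals lay between 43554594 and 61370843 counts. Ccdc82 itself followed the labels: its level, in FPKM (fragments scaled to gene length and library total), was 7.70 to 10.3 in WT, 5.22 to 6.58 in Ccdc82+/- and 2.48 to 3.46 in Ccdc82-/-. In mice with Q140 the same 3 genotypes spanned 7.55 to 9.11, 5.69 to 7.20 and 2.55 to 3.19, so the 3 copy numbers did not overlap within either set. Reads of Ccdc82 remained in the mice labelled Ccdc82-/-. The dissected tissue carried the defining genes of cortex in every mouse, with Slc17a7, the vesicular glutamate transporter of cortical excitatory neurons, at 205 to 240 FPKM and Gad1 at 52.1 to 63.1. The hypothalamus is a rich source of Cartpt, Gal, Nts and Trh. Of its markers, Oxt, Avp, Pmch and Hcrt were at 0 in some mice and never above 0.292 FPKM. The same held for Agrp, Ghrh, Sim1 and Otp. Pomc (0.327 to 0.783 FPKM) and Kiss1 (0.133 to 0.775) were higher and were detected in every mouse.

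Of the 36 genes, Cck was highest at 339 ± 19.2 FPKM (SD, n = 47), followed by Sst at 177 ± 12.6 and Npy, an appetite and stress peptide of Sst cells and others, at 99.5 ± 5.88. These 3 ranges did not overlap. Gad1 (57.5 ± 2.53), Hapln4 (55.0 ± 3.51) and Pvalb (53.9 ± 4.20) came next and overlapped one another. Vip (31.1, range 26.6 to 42.1) overlapped both Slc32a1 (35.6 ± 1.23, range 32.6 to 38.6) and Gad2 (30.3 ± 1.13, range 27.6 to 32.4), whose ranges did not meet. The transcription factors lay between Maf at 5.62 ± 0.330 and Prox1 at 1.87 ± 0.138. Chodl, which marks the rare long-range Sst cells, was at 0.0905 ± 0.0268 FPKM and Trh at 0.149 ± 0.0702. Gal and Nts were barely detected, with 0 to 4 and 0 to 9 counts per library, and were not tested.

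**Figure D1:**
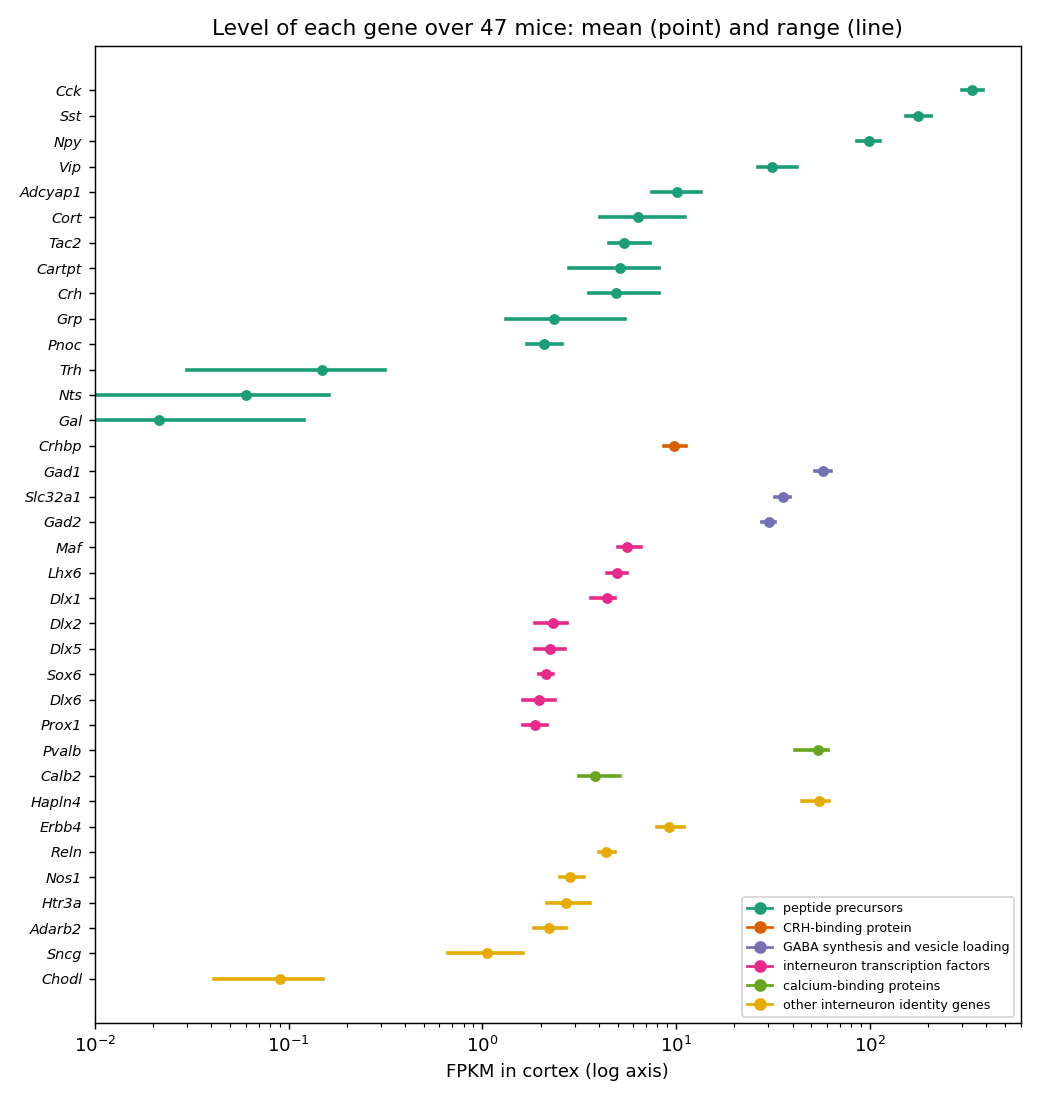
Mean FPKM (point) and range (line) of each of the 36 genes over 47 mice, on a log axis, coloured by role and ordered by level within a role. Lines that reach the left edge (Nts and Gal) extend to 0; Cck, Sst and Npy lie furthest to the right and do not overlap.

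The first comparison asked what Q140 does to these genes, averaged over the 3 Ccdc82 genotypes (mean of the groups with the allele minus mean of those without it). Cartpt, the precursor of the CART peptides, and Hapln4, a link protein of the perineuronal nets that surround Pvalb cells, were lower with Q140, and no member was higher. In this comparison 0.876% of all genes tested were called (168 of 19174, at an adjusted p under 0.05 in edgeR's quasi-likelihood test), 0.339% higher and 0.537% lower. Over the 34 tested members the median log2 difference was -0.021, beside 0.00085 over all genes, with 13 values above 0 and 21 below. Members with an unadjusted p under 0.05 numbered 7, against 9.18% of all genes. In whole cortex, fewer cells of a type and less RNA per cell cannot be told apart.

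Among the peptide precursors, Cartpt (ENSMUSG00000021647, chromosome 13, 99898489 to 99901091 on GRCm38, minus strand) had the clearest difference. In WT mice its lowest, median and highest levels were 4.80, 5.83 and 6.86 FPKM, and in Q140 mice 3.87, 4.36 and 5.01. In Ccdc82+/- they were 2.81, 5.71 and 8.19, against 3.43, 4.25 and 4.96 with Q140. In Ccdc82-/- they were 4.62, 6.20 and 7.22, against 4.19, 4.91 and 5.37 with Q140. The medians were lower with the allele in all 3 pairs of groups, and the ranges overlapped in all 3; the lowest of the 47 mice, at 2.81 FPKM, was a male without Q140 (Ccdc82+/-, male 1). The mean was 4.43 ± 0.547 FPKM (SD, n = 23) with Q140 and 5.86 ± 1.13 (n = 24) without it. The log2 difference was -0.41 (SE 0.066, adjusted p = 0.000196), and 23 of 23 mice with Q140 lay below the mean of the mice without it of the same Ccdc82 genotype and sex.

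The difference of Cartpt on each Ccdc82 background was -0.44 (SE 0.11) against WT, -0.46 (SE 0.11) against Ccdc82+/- and -0.33 (SE 0.12) against Ccdc82-/-. None of these 3 passed adjustment over all genes (adjusted p = 0.171, 0.292 and 0.985), although the first was called when only those 2 groups were fitted (adjusted p = 0.00776). The effect of Q140 on Cartpt was not shown to depend on Ccdc82: the interaction was -0.017 (95% interval -0.33 to 0.30) with Ccdc82+/- and 0.11 (-0.20 to 0.43) with Ccdc82-/-. It was -0.37 (adjusted p = 0.0487) in females alone and -0.44 (adjusted p = 0.156) in males alone, and the interaction with sex was 0.070 (-0.20 to 0.34).

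Some markers of other cells also differed with Q140. Of 12 excitatory neuron markers 1 was called, Camk2a, lower by -0.082 (adjusted p = 0.000378), and the summed level of the 12 was 889 to 982 FPKM with Q140 and 945 to 1007 without it. Of 8 astrocyte markers 3 were called, all lower (Glul -0.11, Aldoc -0.096 and Slc1a2 -0.077), with sums of 1046 to 1192 against 1085 to 1266. These 3 had the highest levels of the 8 and so weigh most in the sum. Of the uncalled markers, Aqp4 had a higher mean with Q140 (18.5 FPKM against 17.6), as did Gfap (15.7 against 15.2). Aldh1l1, Slc1a3 and Gja1 had slightly lower means. The summed level of markers of striatal projection neurons, which also make CART, was 72.4 to 84.4 FPKM with Q140 against 73.0 to 90.6 without it. The part of these cells in the level of Cartpt was not tested.

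**Figure D2:**
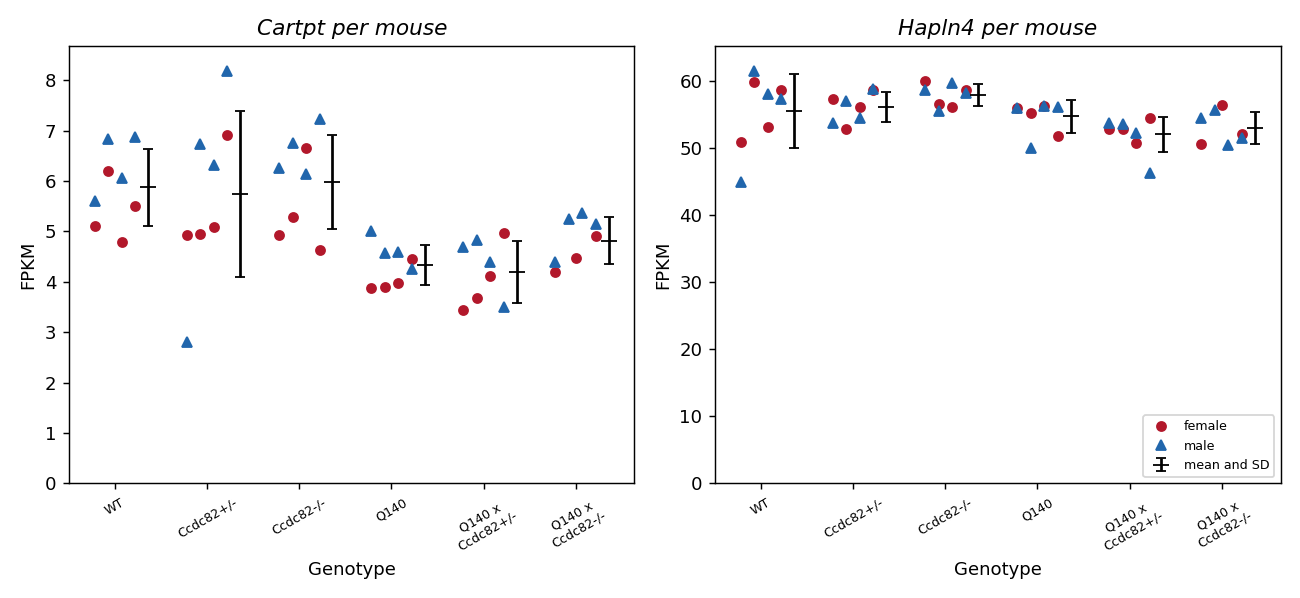
FPKM of Cartpt and Hapln4 in each mouse by genotype (circles, females; triangles, males; bars, mean and SD of 7 or 8 mice), with axes from 0. Cartpt was at 3.43 to 5.37 in the 23 mice with Q140, and a single Ccdc82+/- male at 2.81 lay below them; for Hapln4 the groups overlap widely.

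Hapln4 (ENSMUSG00000007594, chromosome 8, 70083457 to 70090862, plus strand) was called by a small margin. Its lowest, median and highest levels were 45.0, 57.7 and 61.6 FPKM in WT, 52.9, 56.6 and 58.9 in Ccdc82+/- and 55.5, 58.4 and 60.0 in Ccdc82-/-. With Q140 they were 50.1, 56.0 and 56.3 alone, 46.3, 52.9 and 54.5 with Ccdc82+/- and 50.4, 52.1 and 56.4 with Ccdc82-/-. All 3 pairs of groups overlapped, and 19 of 23 mice with Q140 lay below their reference mean. The log2 difference was -0.092 (SE 0.023, adjusted p = 0.0349). The call was lost when plate column entered the model (adjusted p = 0.0539), on the FPKM scale with limma (0.0858 with 0.1 added) and when any of 14 of the 47 libraries was left out (adjusted p 0.0506 to 0.0596). Those 14 were Ccdc82-/- male 4; Ccdc82+/- female 4 and male 4; Q140 female 4 and male 2; Q140 with Ccdc82-/- female 1 and male 3; Q140 with Ccdc82+/- female 3 and male 4; and WT females 2 and 4 and males 2, 3 and 4. Of 12 other components of the perineuronal net 0 were called; the smallest p-values were those of the core proteins Bcan, at -0.059 (adjusted p = 0.0546), and Ncan, at -0.036 (0.349). Pvalb itself, the calcium-binding protein of the cells that carry these nets, was at 53.6 ± 4.01 FPKM with Q140 and 54.3 ± 4.42 without it, a difference of -0.026 (95% interval -0.094 to 0.042).

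The other 11 tested peptide precursors did not pass the test. Of these, 9 had values below 0 with Q140, and their median was -0.062. Npy was at 102 ± 3.32, 103 ± 5.81 and 99.2 ± 5.54 FPKM in WT, Ccdc82+/- and Ccdc82-/-, and at 96.3 ± 5.31, 96.6 ± 6.44 and 99.7 ± 6.70 in the same genotypes with Q140, a difference of -0.062 (SE 0.024, adjusted p = 0.321) with overlapping groups. Sst had group means of 183, 181 and 177 FPKM without Q140 (181 ± 13.4 over the 24 mice) and of 175, 174 and 172 with it (174 ± 10.9 over the 23), a difference of -0.062 (SE 0.029, adjusted p = 0.509). Each group again overlapped its partner, and 16 of 23 mice with Q140 lay below their reference mean.

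Crhbp, which binds and inactivates corticotropin-releasing hormone (Crh) and is made by Sst cells, was at 9.97 ± 0.602, 10.3 ± 0.698 and 9.94 ± 0.413 FPKM without Q140 and at 9.30 ± 0.496, 9.71 ± 0.629 and 9.71 ± 0.571 with it. Its difference was -0.077 (SE 0.026, adjusted p = 0.183), with 18 of 23 mice below reference. Crh differed by -0.11 (95% interval -0.25 to 0.029) and Cort, the somatostatin-like peptide cortistatin, by -0.11 (-0.27 to 0.046).

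Adcyap1, the precursor of the peptide PACAP, had the opposite sign. It was at 9.59 ± 1.42, 10.3 ± 1.09 and 9.29 ± 0.357 FPKM in WT, Ccdc82+/- and Ccdc82-/-, and at 10.2 ± 0.861 in Q140 and 10.4 ± 0.895 in Q140 with Ccdc82+/-. In Q140 with Ccdc82-/- it spanned 9.61 to 13.5, against 8.64 to 9.78 in Ccdc82-/-, with some overlap. The difference was 0.11 (SE 0.043, adjusted p = 0.306), and 20 of 23 mice lay above reference. Vip (-0.051, interval -0.12 to 0.021), Pnoc (-0.051, -0.14 to 0.034) and Cck (-0.019, -0.064 to 0.027) had intervals that include 0, as did Tac2, Grp and Trh. For Trh, with 2 to 22 counts per library, the interval ran from -0.55 to 0.18, which includes a difference of the size seen in Cartpt.

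Genes of GABA synthesis and loading were held within narrow limits. Gad1 was at 56.9 ± 2.44 FPKM with Q140 and 58.0 ± 2.55 without it, a difference of -0.034 (SE 0.015, adjusted p = 0.446). Slc32a1 (35.4 ± 1.03 and 35.8 ± 1.40) differed by -0.022 (interval -0.051 to 0.0076) and Gad2 (30.3 ± 1.23 and 30.3 ± 1.05) by -0.0072 (-0.033 to 0.019). None of the 3 passed.

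Of the 8 transcription factors, 4 had values above 0, 4 below and 0 were called; those of Lhx6, Sox6 and Dlx5, all near 0, changed sign under some alternatives. Maf, which sets the fate of medial-eminence cells, was at 5.33 ± 0.271 to 5.74 ± 0.366 FPKM over the 6 group means and differed by -0.030 (interval -0.075 to 0.016). Lhx6, at 4.84 ± 0.270 to 5.03 ± 0.237, differed by 0.0012 (-0.046 to 0.049). Prox1, a factor of caudal-eminence cells, had the smallest p of the 8, at 0.056 (SE 0.029, adjusted p = 0.555). Calb2 had a median of 3.71 FPKM with Q140 and 3.67 without it (0.019, interval -0.056 to 0.094).

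The remaining identity genes included Erbb4, the neuregulin receptor of many interneurons, at 8.80 ± 0.524 to 9.58 ± 0.653 FPKM over the group means and 0.035 (-0.015 to 0.084) in the comparison. Reln, Nos1, Adarb2, Htr3a, Sncg and Chodl had intervals that include 0; that of Chodl was wide, from -0.040 to 0.45, at 8 to 30 counts per library. The 10 medial-eminence genes had a median of -0.028, with 6 below 0, and the 6 caudal-eminence genes one of 0.015, with 2 below 0; this difference between the classes was not tested.

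**Figure D3:**
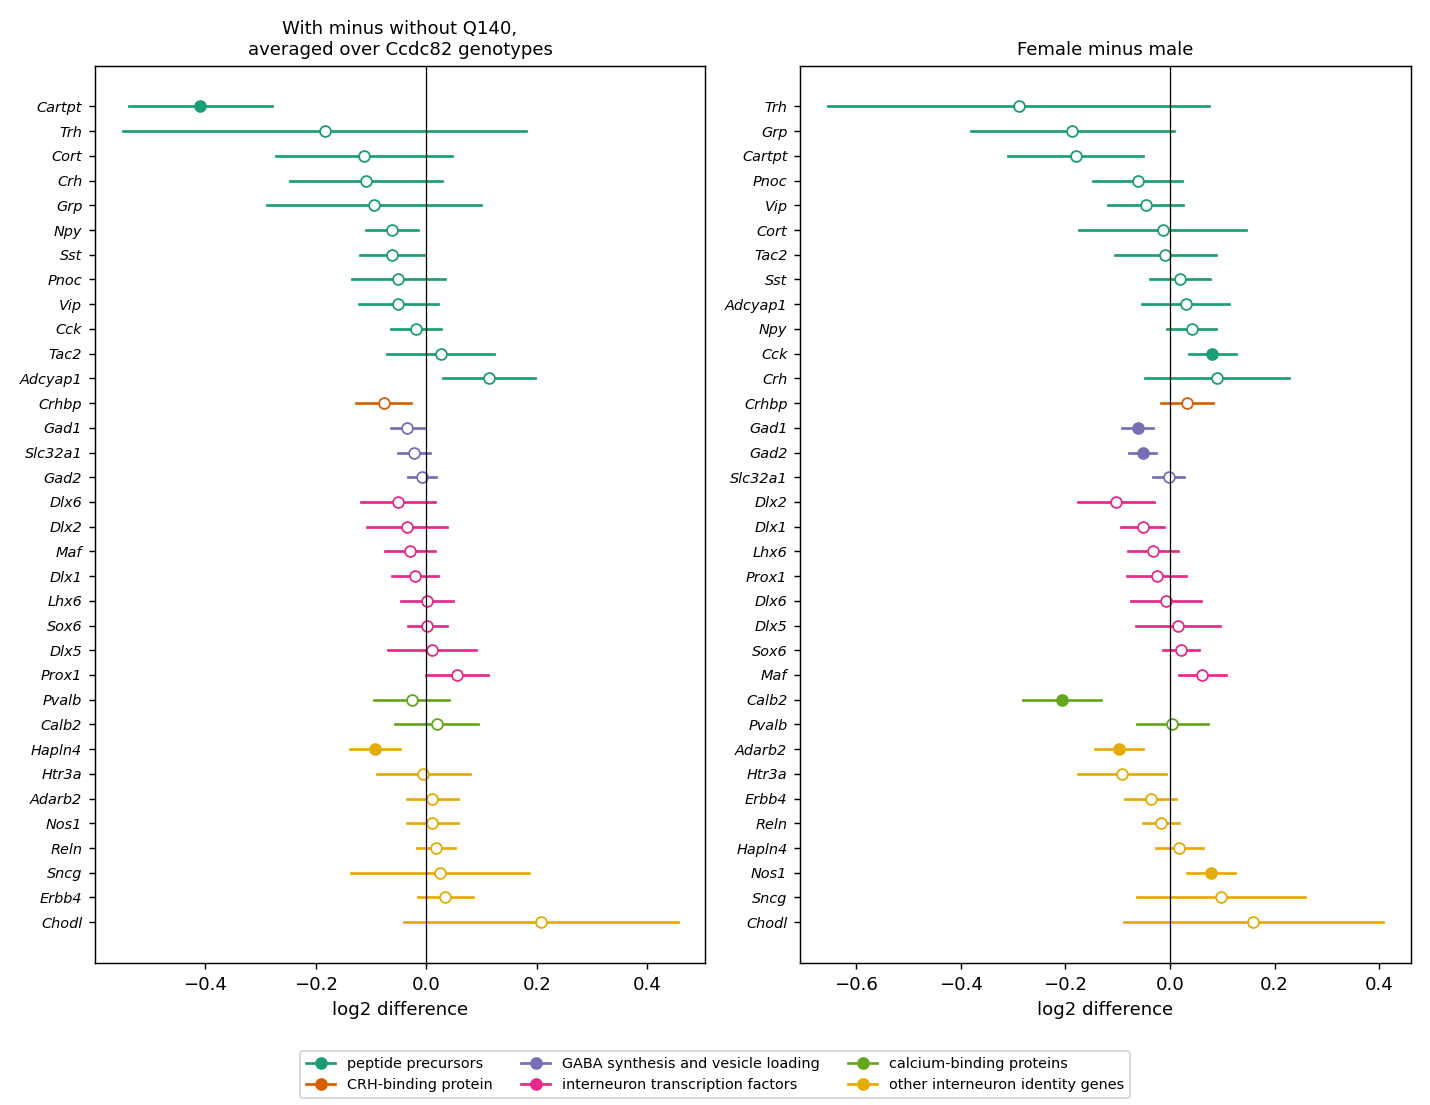
Log2 difference (point) and 95% interval (line) of the 34 tested genes, by role, for Q140 averaged over Ccdc82 genotypes (left) and for females minus males (right); filled points passed an adjusted p under 0.05. On the left Cartpt at -0.41 stands apart and Hapln4 at -0.092 also passed; on the right Calb2 at -0.21 is the largest of 6 that passed.

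On single backgrounds no member was called. For Q140 against WT and for Q140 with Ccdc82+/- against Ccdc82+/-, 0.0313% of all genes were called in each (0.0209% higher and 0.0104% lower); for Q140 with Ccdc82-/- against Ccdc82-/- it was 0.0209% (0.0156% higher and 0.00522% lower). At an unadjusted p under 0.05 there were 5, 5 and 4 members of 34, beside 6.93%, 5.18% and 4.17% of all genes, and the only one in all 3 was Cartpt. DESeq2 called 1 member against WT, Cartpt (-0.44, adjusted p = 0.0497), and 0 on the other backgrounds. These 3 comparisons share no control mice with one another.

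Loss of Ccdc82 left all 34 members uncalled by edgeR's quasi-likelihood test and by DESeq2. In each of the 6 comparisons for it (Ccdc82+/- and Ccdc82-/- against WT, against Q140, and averaged over both), 0.00522% of all genes, which is Ccdc82 itself, were called. Members at an unadjusted p under 0.05 numbered 0 and 0 of 34 against WT (3.60% and 3.23% of all genes), 3 and 1 against Q140 (5.42% and 4.09%), and 4 and 2 in the averages (5.31% and 4.65%). Averaged over Q140, Cartpt differed by -0.038 (interval -0.20 to 0.12) with Ccdc82+/- and by 0.084 (-0.075 to 0.24) with Ccdc82-/-, and Hapln4 by -0.028 (-0.083 to 0.027) and 0.0082 (-0.048 to 0.064). Both interactions of Q140 with Ccdc82, and that of Q140 with sex, had 0% of all genes called by edgeR and 0% by DESeq2; members at an unadjusted p under 0.05 numbered 0 for Ccdc82+/-, 1 for Ccdc82-/- (Reln) and 0 for sex.

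Genes around these peptides and cells gave the following counts for the averaged effect of Q140. Of 22 tested neuropeptide receptors 0 were called; the smallest p-values belonged to Sort1, a neurotensin receptor and sorting protein (-0.048, adjusted p = 0.0542), and the somatostatin receptor Sstr1 (0.13, 0.263). Of 16 genes of peptide processing and dense-core granules 0 were called, with the granule protein Chga at -0.059 (0.292) and Scg5, a chaperone of a prohormone convertase, at 0.031 (0.512). Of 25 other interneuron markers 2 were called, both lower: Lamp5, which marks neurogliaform cells and also layers of excitatory neurons, by -0.11 (SE 0.029, adjusted p = 0.0420), and Kcnc1, a potassium channel of fast-spiking cells, by -0.056 (SE 0.014, adjusted p = 0.0407). Of 6 genes of GABA uptake and breakdown 0 were called, with the GABA transporter Slc6a11 at -0.068 (adjusted p = 0.242).

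Of 10 other tested peptide precursors 0 were called; Penk, the enkephalin precursor, which is also a striatal marker, was at -0.19 (adjusted p = 0.0775) and Nucb2 at 0.046 (0.650). Of 25 activity-regulated genes, a class to which several peptide genes respond, 0 were called, 22 had values below 0 and the median was -0.084, with sums of 488 to 1228 FPKM with Q140 and 642 to 1690 without it. Their part in the peptide values was not tested.

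Sex was the other labelled contrast. Calb2, Adarb2, Gad1 and Gad2 were lower in females, and Cck and Nos1, the neuronal nitric oxide synthase, were higher. This made 6 of 34 members called, beside 10.5% of all genes (5.27% higher and 5.26% lower in females), so that differences between the sexes were common throughout the transcriptome. The median over the members was -0.011, beside 0.0010 over all genes.

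Calb2 was at 3.15 to 4.12 FPKM in the 23 females, with a median of 3.51, and at 3.49 to 5.16 in the 24 males, with a median of 4.06. The ranges overlapped, and the difference was -0.21 (SE 0.038, adjusted p = 0.000374). Adarb2, an RNA-binding marker of caudal-eminence cells, was at 2.13 ± 0.112 FPKM in females and 2.29 ± 0.161 in males (-0.098, SE 0.024, adjusted p = 0.00531). Gad1 was at 56.0 ± 1.91 and 58.9 ± 2.27 (-0.062, SE 0.015, adjusted p = 0.00563) and Gad2 at 29.6 ± 0.833 and 30.9 ± 0.993 (-0.052, SE 0.013, adjusted p = 0.00802). Their partner Slc32a1 had a difference of -0.0025 (interval -0.032 to 0.027). Cck was at 348 ± 17.2 FPKM in females and 331 ± 17.5 in males (0.081, SE 0.023, adjusted p = 0.0191), and Nos1 at 2.92 ± 0.149 and 2.78 ± 0.169 (0.079, SE 0.023, adjusted p = 0.0238). All 6 pairs of ranges overlapped. Cartpt was lower in females by -0.18 without passing (adjusted p = 0.0673), although DESeq2 called it (-0.18, adjusted p = 0.0466).

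These differences between the sexes depended on the model. With 2 surrogate variables as further terms, the directions of Calb2 (0.19), Adarb2 (0.16) and Cck (-0.11) turned, and that of Gad1 did not (-0.17, adjusted p = 0.0221). In that fit 7 members were called, of which Gad1 was the only one among the 6. Sex accounted for 46.0% and 44.6% of the variance of these variables. The fit therefore separates sex from them poorly and cannot decide whether the differences hold. The number within the library names (19 numbers) never spanned both sexes, so that it is nested in sex. The sexes can therefore be compared only between numbers. The sources used here do not say what the number marks. With that number as a random block in limma-voom, 851 genes were called, 4 of the members among them, in place of 2018 with edgeR. Cck (adjusted p = 0.0586) and Nos1 (0.0772) were not called there. No limma-voom fit without the block was run, so the parts of block and method cannot be told apart. Dlx2, not among the 6, was called lower in females by DESeq2 (-0.10, adjusted p = 0.0430) and with plate column in the model (-0.12, 0.0243). The limma fits on log2(FPKM + 0.1) and log2(FPKM + 1) also called it lower (adjusted p = 0.0430 and 0.0428). With the 2 surrogate variables it was called higher (0.33, adjusted p = 0.0415). In the 24 mice without Q140 alone 1 of the 6 was called (Cck), and in the 23 with Q140 alone 0 were. All 6 kept their directions in both of these smaller sets of mice. The calls lost there are not set beside the share of all genes called in the same sets, so they say nothing about the members in particular. Sums of red blood cell genes were 0.208 to 44.4 FPKM in females and 0.181 to 39.4 in males, with all 5 genes below 0 (median -0.64, 0 called), and of 25 activity-regulated genes 18 were below 0 and 3 were called lower (Btg2, Fos and Junb). Of 7 endothelial and pericyte genes 3 were higher in females (Cldn5, Flt1 and Kdr). Their part in these values was not tested.

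**Figure D4:**
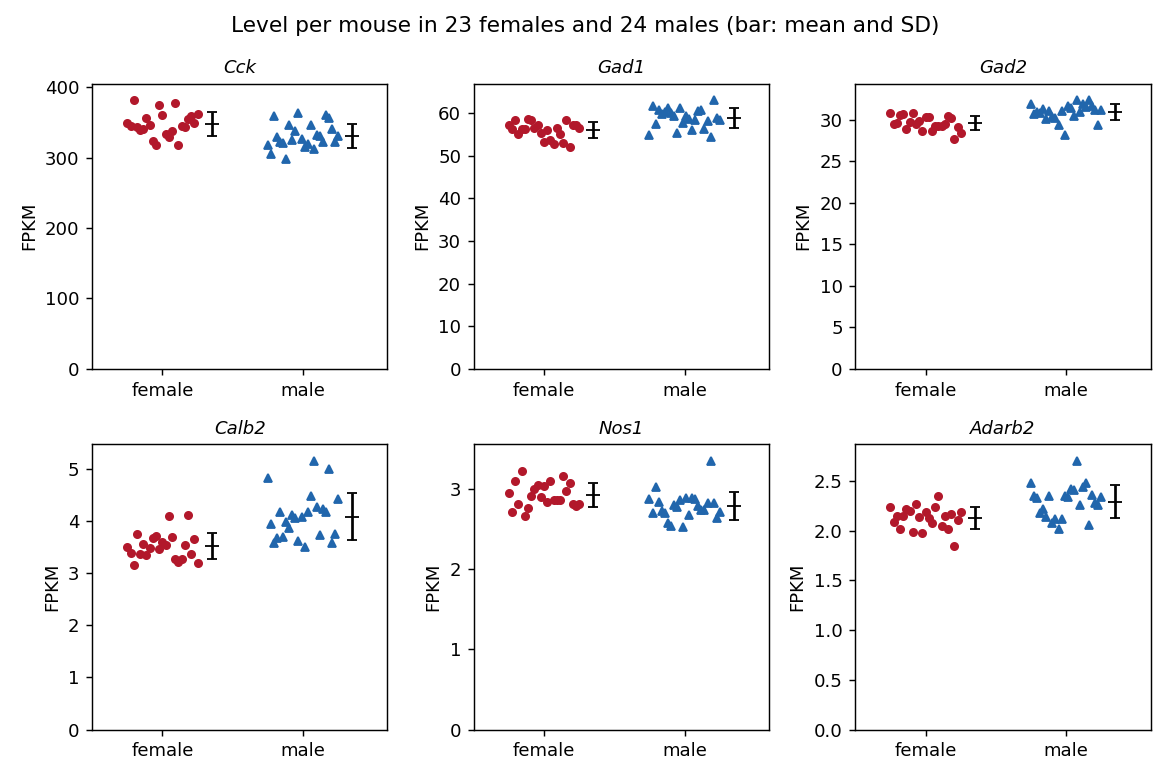
FPKM per mouse of the 6 members called between the sexes, in 23 females (circles) and 24 males (triangles), each axis from 0, with the mean and SD. Calb2 shows the largest separation, 3.52 ± 0.254 against 4.08 ± 0.445; all 6 pairs of ranges overlap.

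The spread between mice of the same genotype and sex, as the biological coefficient of variation, was lowest for Gad2 (3.30%), Slc32a1 (3.60%), Gad1 (3.82%) and the transcription factor Sox6 (3.87%). It was highest for the peptides Trh (30.2%), Grp (21.7%), Cort (18.1%), Crh (15.8%) and Cartpt (14.3%) and for Chodl (17.8%). Among genes of like abundance Grp, Cort and Crh ranked at the 96.9th, 95.7th and 95.6th percentile of variation. Against genes of like abundance the peptide Pnoc was at the 44.6th, Chodl at the 38.9th, Gad1 at the 54.9th and Gad2 at the 27.6th.

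Members also varied together between mice. After removal of genotype and sex means, 44 of the 561 pairs of tested members were correlated over the 47 mice at an adjusted p under 0.05 (100000 permutations of mice within genotype and sex, two-sided), 32 positively and 12 negatively. Spearman's rho called 34, and 31 were called by both. Values of r above 0.5 made up 4.99% of member pairs, beside 1.55% of all gene pairs.

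Genes of GABA handling and of Pvalb cells formed the tightest group. Gad1 and Pvalb had r = 0.77 (rho 0.74), Slc32a1 and Hapln4 0.77 (rho 0.74), Gad1 and Slc32a1 0.75 (rho 0.73), and Slc32a1 and Pvalb 0.75 (rho 0.72). Each of these 4 had a permutation p of 1e-05 for both measures, the smallest that the permutations can give (adjusted p = 0.00112 for r and 0.0014 for rho), and r was 0.70, 0.76, 0.70 and 0.74 without the 2 mice farthest from the median. Pvalb and Hapln4 had r = 0.71 (rho 0.59, adjusted p = 0.00312 and 0.0117; r = 0.61 without 2 mice), with 0.38 in females and 0.84 in males. Gad2 was in none of the 44 pairs.

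Vip was also positively correlated with other members. Vip and Crh had r = 0.72 (rho 0.62, adjusted p = 0.0024 and 0.00535; r = 0.64 without 2 mice), with 0.46 in mice with Q140 and 0.86 in those without it, a difference that was not tested. Vip and Htr3a had r = 0.64 (rho 0.60, adjusted p = 0.00612 and 0.00561; 0.58 without 2 mice). Other pairs were negative: Pvalb and Htr3a had r = -0.70 (rho -0.63, adjusted p = 0.00312 and 0.00535; -0.67 without 2 mice), and Pvalb and Calb2 -0.68 (rho -0.54, adjusted p = 0.00612 and 0.0261; -0.56 without 2 mice). All 12 negative pairs set Pvalb, Gad1, Slc32a1 or Hapln4 against Htr3a, Calb2, Tac2, Adcyap1 or Grp. With the plate column as a further term 46 pairs passed, and with the library-name number added 5 did. That number leaves few free mice, and the reason for the fall was not tested.

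**Figure D5:**
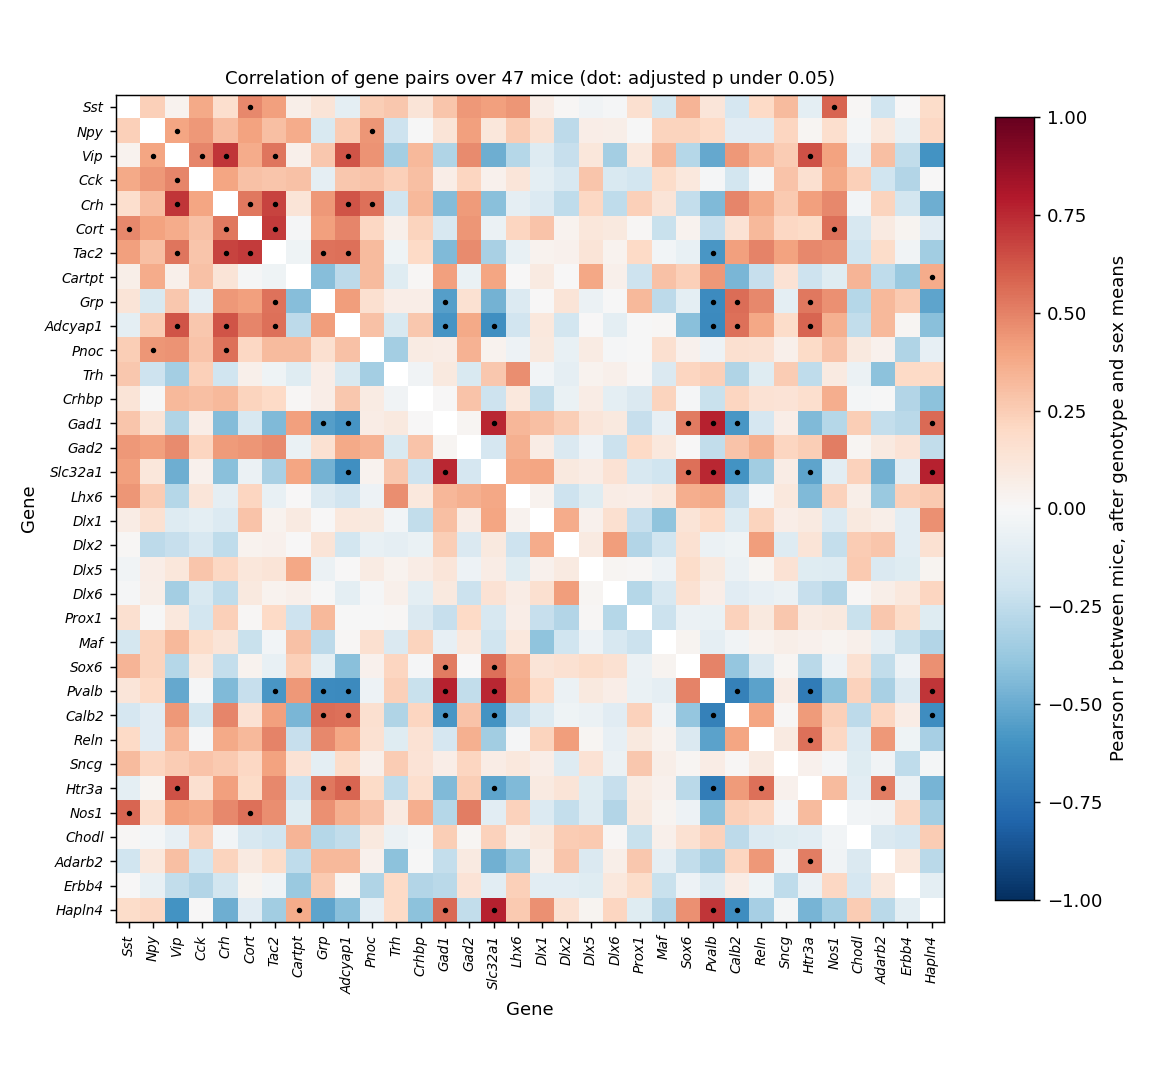
Pearson r over 47 mice for each pair of the 34 tested genes, after genotype and sex means were removed (red, positive; blue, negative; dots, adjusted p under 0.05; blank diagonal). Pvalb, Gad1, Slc32a1 and Hapln4 share red cells, up to 0.77, and have blue cells against Htr3a, Calb2, Adcyap1 and Grp, down to -0.70.

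Several members varied with markers of other cells. Of 442 relations between 34 members and the mean of 13 marker lists, 11 passed. The oligodendrocyte list (8 genes) went up with Pvalb (r = 0.60, rho 0.54, adjusted p = 0.0194; 0.47 without 2 mice) and Hapln4 (0.62, rho 0.58, adjusted p = 0.0335; 0.49) and down as Vip rose (-0.70, rho -0.62, adjusted p = 0.011; -0.58). The excitatory list (12 genes) went with Slc32a1 (0.59, rho 0.50, adjusted p = 0.0194; 0.61) and Hapln4 (0.56, rho 0.47, adjusted p = 0.0478; 0.60). The part of these cells in the pairs of members was not tested.

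The genes most like the 2 members called for Q140 were taken by Pearson r of the same residuals over 47 mice and 19173 other genes. For Cartpt they included Ttl (0.75), Jph3 (0.72), Sdcbp (0.71) and Proser2 (0.70). For Hapln4 they were Lynx1 (0.92), Nat8l (0.88), Map1a (0.88), Them6 (0.87) and Fndc5 (0.86), ahead of the members Slc32a1 (rank 46), Pvalb (rank 118) and Gad1 (rank 610). Cartpt and Hapln4 had r = 0.37 with each other (rho 0.40, adjusted p = 0.0432 and 0.109; 0.34 without 2 mice).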

How the data were processed

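The cortex of 47 mice was measured by RNA sequencing with a stranded kit, per the labels' protocols. The authors deposited unnormalized read counts by gene and a table of FPKM, scaled to gene length and library total. Per the submitters' processing notes the tools included STAR 2.7.5c, SAMtools 1.10 and HTSeq 0.12.3, and the named builds are GRCm38 and mm10; which gene annotation was counted is not stated in the sources used here. Over 19539 genes the ratio of FPKM to count, per library total, was the same in all libraries within 3.04e-15 of its size. Between replicates the chi-square per gene was 3.87 to 23.8, so none were duplicates.

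Counts were fitted in edgeR 4.0.16 (TMM, filterByExpr with minimum count 10, robust glmQLFit and glmQLFTest) with 6 genotype means and sex, all libraries in 1 fit, adjusted by Benjamini-Hochberg over 19174 genes and called at an adjusted p under 0.05. The standard error (SE) was the absolute log2 difference over the root of F, and intervals are 1.96 SE either side. The interaction of Q140 with sex came from genotype-by-sex means. Data were simulated for 19174 genes, with changes set only in genes with a mean CPM above 1. For the averaged effect of Q140, 50.7% of genes changed by 0.1 (log2) were called. So were 79.1% of those changed by 0.2, 100% of those changed by 0.4, and 7 unchanged genes. These shares are averages over genes of differing spread and were not taken for variable genes alone. The biological coefficient of variation was 15.8% for Crh, 18.1% for Cort and 21.7% for Grp, beside a median of 6.88% over all genes tested. Trh, Chodl and Sncg lie below a mean CPM of 1 (average log2 CPM -2.03, -1.38 and -0.094), so these shares do not cover them. Pairs used log2 CPM (prior count 2) after genotype-by-sex means. Alternatives used DESeq2 1.42.0, limma 3.58.1 and sva 3.50.0.

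The members, gene lists and tests were chosen with earlier results of these data known, and no list is independent evidence. Values are given for every called member, the 5 with the smallest p for Q140 and for sex, and the 2 with the highest level in each role; of other lists, for the genes called, or else the 2 with the smallest p. A few genes that this rule names are not reported here.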

Additional observations from a re-analysis of the deposited data

Results flagged for a closer look

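In each of the 204 sets made of 1 tested member and 1 genotype, the highest and the lowest mouse were compared with the rest by Dixon's ratio, and 12 sets (5.88%) had a mouse set apart; chance gives about 1 in 20. The peptides gave 5 of these. Grp was at 5.46 FPKM in WT male 1, against 2.49 in the next WT mouse, and Cort was at 11.1 in Q140 with Ccdc82-/- female 2, against 6.47. Tac2 was at 7.06 in Ccdc82+/- female 4 (next 5.71) and at 7.35 in Q140 with Ccdc82+/- male 4 (next 5.84). Trh was at 0.315 in Q140 male 2 (next 0.157).

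Among the other members, Crhbp was at 10.4 in Q140 male 3 (next 9.41) and Calb2 at 4.81 in Ccdc82+/- male 1 (next 3.94). Maf was lowest at 5.17 in Ccdc82-/- female 4 (next 5.64) and highest at 6.57 in Q140 with Ccdc82-/- female 1 (next 5.83). Erbb4 was at 11.1 in Q140 with Ccdc82+/- male 1 (next 9.78). Q140 with Ccdc82+/- male 4, the mouse with the high Tac2, also had Htr3a at 3.60 (next 2.93) and the lowest Hapln4 of its group, 46.3 (next 50.7), and is 1 of the libraries whose removal ended the call of Hapln4.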

How the results depend on the processing

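Over 61 results and 2617 alternatives, 1974 of which left out 1 library each, 2541 stayed on their side of the threshold (counts: within 1.5 times), 39 kept the direction and lost the threshold, 34 moved and 3 called values reversed. Among the 2541, values of uncalled members for Q140 changed sign 56 times, in 10 members: Lhx6 in 18 of 59 alternatives, Sox6 in 16, Htr3a in 11, Dlx5 in 4, Sncg in 2 and Cck, Pnoc, Trh, Nos1 and Erbb4 in 1 each, so their direction is not settled. For the averaged effect of Q140 the members called fell from 2 to 1 in females alone, with limma on log2(FPKM + 0.1) and log2(FPKM + 1), with no filter on low counts, with plate column in the model and with the replicate block, and to 0 in males alone; leaving out 1 library gave 1 to 2. The title numbers do not pair the mice (mean r 0.0076 over 115 pairs of the same number and sex), and the replicate block ended the call of Hapln4 (adjusted p = 0.0601). Cartpt was called in 58 of 59 alternatives, the exception being males alone. Of all genes called, those higher with Q140 were 81 of 161 on the FPKM scale and 65 of 168 on counts. Against WT, DESeq2 and a fit of the 2 groups each called 1 member in place of 0. Between the sexes 0 members were called in the 23 mice with Q140 alone and 1 in the 24 without it. These counts, and those for females or males alone, are not set beside the share of all genes called in the same mice. On the FPKM scale 805 of 2215 genes called were higher in females, beside 1010 of 2018. With 2 surrogate variables, which overlap strongly with sex, Cck became -0.11, Calb2 0.19 and Adarb2 0.16 between the sexes. The cause was not tested. With the library-name number added, 5 pairs of members passed in place of 44. Counts were lowest for Trh, Chodl, Gal and Nts, which limits their precision.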
